A study of Homo sapiens with 12 samples.

Results

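Metastin-10 was set against a control peptide in Ishikawa cells that had received a negative control siRNA. The members are 6 of the 12 arrays of the series, 3 with metastin-10 and 3 with the control peptide, chosen by their labels alone, and all 54613 probe sets other than the array's own controls were examined. Ishikawa is an established epithelial line of human endometrial adenocarcinoma, so every array comes from 1 line. In both groups the transfection lasted 48 h, and 10 µM metastin-10 or the control peptide was then present for 24 h. The labels do not give the sequence or dose of the control peptide, and they call the 3 arrays of a group biological replicates. The other 6 arrays carry the label GPR54 siRNA with the same peptides and enter here for the shared estimate of the spread and for 1 comparison near the end. The design asks which genes change with metastin-10, and all values below are RMA levels on the log2 scale, where 1 unit is a 2-fold change.

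Metastins, or kisspeptins, are amidated peptides cut from the KISS1 product, and metastin-10 is their shortest active C-terminal form. They bind GPR54, the product of KISS1R, a receptor coupled to Gq proteins that activates phospholipase C, raises intracellular calcium and engages protein kinase C and MAP kinases. The peptide is best known as the trigger of gonadotropin-releasing hormone secretion and as a suppressor of metastasis, and the receptor is also found in trophoblast and endometrium.

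The arrays resembled each other closely, with correlations between 0.992 and 0.998 over the probe sets, and medians between 5.13 and 5.22. Replicate 3 stood apart in each group: its beta-actin 3 prime minus 5 prime difference was 0.287 with control peptide and 0.31 with metastin-10, against 0.717 to 0.899 in the other 4 arrays of the comparison. Metastin-10 replicates 1 and 2 stood apart from the other 10 arrays on the second principal component (21.4% of variance). The epithelial origin of the line was read from its markers: the 12 epithelial markers had levels from 7.81 (MUC1) to 13.99 (KRT18), averaging 11.3 in each control array and 11.1 in each metastin-10 array, and KRT19 was the 1 member called (lower). Of the 12, 11 lay below 0 and 7 had an unadjusted p under 0.05. Their median difference was -0.20, between -0.23 and -0.17 over the 21 alternative settings, and 2 were called lower with the replicate block. No member of the stromal (10 measured), endothelial (10), leukocyte (8) or smooth muscle (8) marker lists was called. As a mean over the list in each array, the stromal markers lay at 4.73 to 4.78 with control peptide and 4.79 to 4.86 with metastin-10, and the endothelial markers at 4.56 to 4.59 and 4.51 to 4.68. The leukocyte markers lay at 4.33 to 4.49 and 4.50 to 4.68 and the smooth muscle markers at 5.73 to 5.79 and 5.78 to 5.90. In the order of these lists 9, 9, 8 and 6 members lay below the median level of all genes, 6.42. The brightest members were COL1A1 (9.84), VWF (6.97), CD79A (5.57) and SMTN (7.06). Over the dimmer 50% of all genes the median difference was 0.07. The part of these markers in the results was not tested. In bulk RNA, fewer cells of a type and less RNA per cell cannot be told apart.

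With metastin-10, falls far outnumbered rises. At an adjusted p under 0.05, 234 of the 54613 probe sets (0.428%) were called, 23 higher and 211 lower. With each of 19775 genes read at its brightest probe set, 15 genes were higher (0.0759%) and 105 lower (0.531%). The changes were small in size: the higher genes differed by 1.31-fold to 2.23-fold and the lower ones by 1.33-fold to 2.82-fold, and at 2-fold or more there were 1 higher and 6 lower. The median difference over all genes was 0.0072, with 48.0% of genes below 0. RMA gives all arrays a common distribution, which holds that median near 0. All 120 called genes had groups that did not overlap, as had 19.6% of all genes (8.72% with metastin-10 higher and 10.9% lower), so the count adds nothing to calls made at this threshold. The hypoxia lists hold 0.632% of all genes. Of the 105 lower genes, 28 belonged to them, 23 to another list only and 54 to no list. Of the 15 higher genes, 11 belonged to a list other than hypoxia and 4 to none, and 0 in a hypoxia list is what that share would leave among 15. Without metastin-10 replicate 1 or 2 the probe sets called numbered 85 and 103, and without control peptide replicate 1, 2 or 3 they numbered 87, 71 and 131. With the replicate block the counts were 31 genes higher and 171 lower, and 118 of the 120 were among them. Counts in the lists below are without the block. Beside the lists where the block's count is given, it added 1 lower gene each in the junction and keratin, potassium channel and cAMP lists. It did the same in the kinase inhibitor, Wnt, long non-coding RNA and non-glycolytic hypoxia lists. The IGF list lost its 1 lower call and gained 1 higher.

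**Figure D1:**
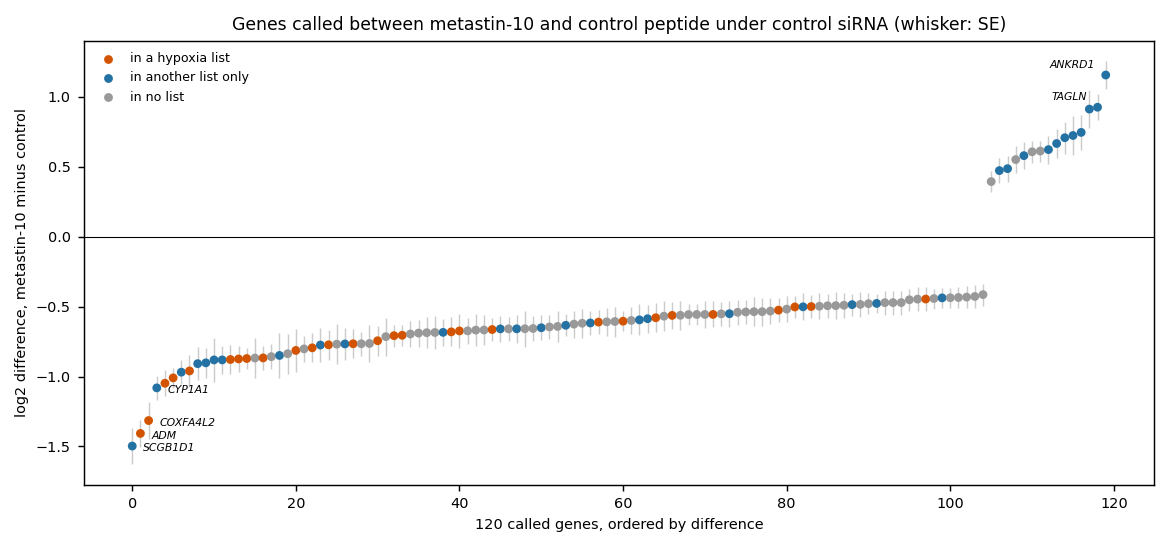
Log2 difference, metastin-10 minus control peptide, of the 120 called genes in order of size, with the SE as whisker, coloured by the kind of list that holds each gene. The 105 lower genes run from SCGB1D1 at -1.50 upward and the 15 higher genes up to ANKRD1 at 1.15, and 28 of the lower genes are on the hypoxia lists.

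The receptor gene fell and the ligand gene did not pass the test. KISS1R, which encodes GPR54, read 9.39, 9.32 and 9.14 in control peptide replicates 1, 2 and 3 and 8.43, 8.42 and 8.35 with metastin-10. The groups did not overlap, and the gene fell 1.84-fold (log2 -0.88, 95% interval -1.09 to -0.67, adjusted p = 0.00213). KISS1, the precursor of the peptide, was at -0.03 (SE 0.09, adjusted p = 0.948). Of the 14 measured genes of kisspeptin and RFamide peptides and their receptors, KISS1R was the 1 called, 12 lay above 0 and the list median was 0.08. The list is dim, with a median level of 4.14, and over the dimmer 50% of all genes the median difference was 0.07. In the arrays labelled GPR54 siRNA the list median was 0.09, so the values above 0 give no direction for the family. KISS1R is also the gene the other siRNA targets, and the 3 control peptide arrays labelled GPR54 siRNA read 9.46, 9.45 and 9.36, which is no lower than with control siRNA. The name of those arrays is therefore used as a label alone.

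Downstream signalling genes of the receptor gave few calls. None of 37 genes of Gq, phospholipase C, protein kinase C and calcium signalling was called (median -0.02). The 2 with the smallest p were RGS16, a regulator of G-protein signalling, at -0.57 (adjusted p = 0.104) and GNA14, a Gq-class alpha subunit, at 0.52 (adjusted p = 0.0681). RGS16 passed with the replicate block (adjusted p = 0.012). Among 38 immediate early and MAP kinase feedback genes (median -0.03) KLF4 fell by 0.49, and this zinc-finger transcription factor read 7.14, 7.20 and 7.05 with control peptide and 6.62, 6.70 and 6.61 with metastin-10, without overlap (adjusted p = 0.0176). With the replicate block 2 of the 38 were called higher and 2 lower. The call of KLF4 was lost in 5 of the 12 fits that each left out 1 array, with an adjusted p of up to 0.11 without control peptide replicate 2. In 6 of such 12 fits, here and below, the array left out carries the label GPR54 siRNA and enters only the spread. All 5 losses of KLF4 came from leaving out an array of the 6 compared.

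ANKRD1 and CCN2, both widely used targets of the YAP and TAZ coactivators, were among the genes that rose. ANKRD1, a nuclear ankyrin repeat protein of stretched muscle and epithelium, read 5.46, 5.50 and 5.72 with control peptide and 6.70, 6.64 and 6.79 with metastin-10. The nearest arrays of the 2 groups lay 0.93 apart, and the difference of 1.15 (SE 0.10, 2.23-fold, adjusted p = 0.000319) was the 1 above 2-fold among the higher genes. CCN2, the secreted connective tissue growth factor, read 6.86, 7.05 and 7.02, against 7.56, 7.83 and 7.77 with metastin-10, again without overlap, and rose 1.68-fold (0.74 ± 0.12 SE, adjusted p = 0.0215). The other 33 of the 35 YAP and TAZ target and Hippo pathway genes did not pass, 19 of the 35 lay below 0, and the list median was -0.05. The replicate block gave 3 calls among the 35, all higher. ANKRD1 was called with every array left out in turn, whereas CCN2 was called in 7 of 12 such fits (adjusted p = 0.116 without control peptide replicate 1). All losses of CCN2 came from leaving out an array of the 6 compared.

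The promoters of these 2 genes are shown because TEAD factors, which carry YAP and TAZ to DNA, recognise the letters CATTCC. Each runs from 250 bases before to 50 after the gene's start, 5′ to 3′ on the gene's strand, from RefSeq on GRCh38.p14, with matches in capitals (GGAATG is CATTCC on the other strand). ANKRD1 lies at chr10:90921038-90921337 on the minus strand and CCN2 at chr6:131951323-131951622 on the minus strand.
ANKRD1: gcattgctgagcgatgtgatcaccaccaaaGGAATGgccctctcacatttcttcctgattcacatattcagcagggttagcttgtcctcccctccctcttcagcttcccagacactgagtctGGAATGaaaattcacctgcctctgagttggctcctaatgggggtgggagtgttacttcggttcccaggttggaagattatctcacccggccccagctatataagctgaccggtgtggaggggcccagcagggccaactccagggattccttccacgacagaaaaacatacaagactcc
CCN2: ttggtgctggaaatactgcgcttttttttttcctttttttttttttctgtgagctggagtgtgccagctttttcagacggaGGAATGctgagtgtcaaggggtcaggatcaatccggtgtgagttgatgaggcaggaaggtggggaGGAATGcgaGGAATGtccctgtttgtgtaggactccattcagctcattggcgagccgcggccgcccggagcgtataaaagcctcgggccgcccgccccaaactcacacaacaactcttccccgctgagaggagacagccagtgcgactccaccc
The matches start 220 and 128 bases before the start of ANKRD1, and 169, 104 and 95 bases before that of CCN2. Searched on both strands, CATTCC occurred in 14% of all 27305 promoters of this length, in 3 of 10 of the higher genes with a promoter in the table and in 6 of 83 (7.23%) of the lower ones. The CArG box, the recognition sequence of serum response factor, occurred in 1.29% of all promoters, 0 of those 10 and 1 of those 83. A match describes the letters and is not a bound site.

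TAGLN, the actin-binding protein transgelin and a classic target of serum response factor, was the second-highest gene. It read 9.48, 9.63 and 9.65 with control peptide and 10.48, 10.51 and 10.54 with metastin-10. The metastin-10 arrays lay within 0.06 of each other and 0.83 above the nearest control, and the gene rose 1.9-fold (0.92 ± 0.09 SE, adjusted p = 0.00116). A second probe set of TAGLN rose by 0.845 (adjusted p = 0.00213), and another was at 0.19 and did not pass. Of 38 measured actin cytoskeleton and serum response factor genes TAGLN was the 1 called, but 30 lay above 0 and the median was 0.09, against 0.0072 over all genes. That median lay between 0.05 and 0.12 over the 21 alternative settings. ACTA2, smooth muscle actin, was at 0.29 (adjusted p = 0.346).

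**Figure D2:**
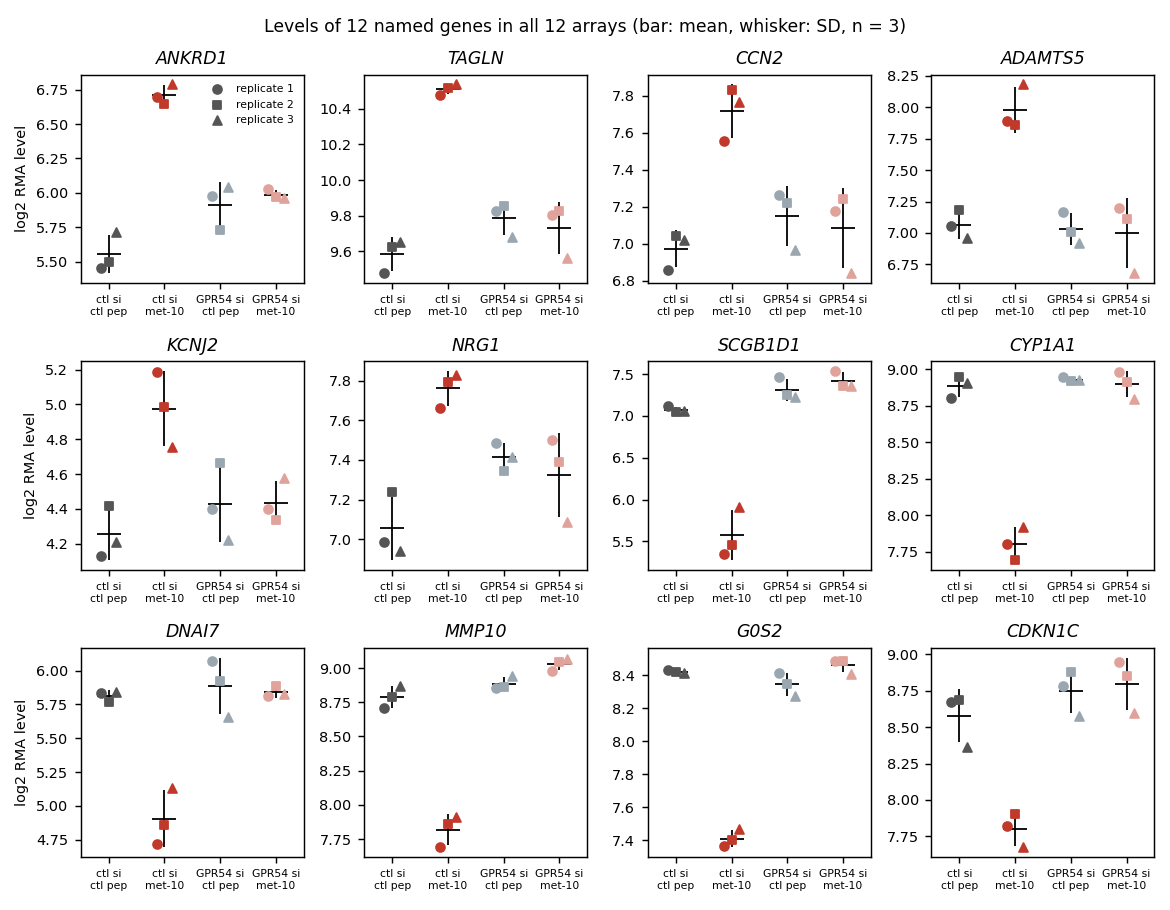
Log2 RMA level of 12 named genes in each of the 12 arrays, with symbols for the replicate number, a bar for the group mean and a whisker for the SD (n = 3). In each panel the 3 metastin-10 arrays with control siRNA lie apart from the 3 control peptide arrays, as for ANKRD1 (5.46 to 5.72 against 6.64 to 6.79) and SCGB1D1 (7.04 to 7.11 against 5.35 to 5.92).

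2 aggrecanase genes and 2 inward rectifier channels also rose. ADAMTS5, a secreted protease that cuts aggrecan, read 7.05, 7.18 and 6.96 with control peptide and 7.89, 7.86 and 8.19 with metastin-10. The nearest arrays of the groups lay 0.67 apart, and the rise was 1.88-fold (0.91 ± 0.14 SE, adjusted p = 0.0129). ADAMTS1, which cuts versican and is induced in the ovary at ovulation, read 8.03, 8.05 and 7.88, against 8.39, 8.48 and 8.50 with metastin-10 (difference 0.47, adjusted p = 0.0434). 2 further probe sets of ADAMTS5 also rose (by 0.84 and 0.90), and another was at 0.48 and did not pass. Of 18 ADAMTS genes these were the 2 called, 13 lay above 0, and the median was 0.11. ADAMTS5 kept its call in 10 of the 12 fits with 1 array left out and ADAMTS1 in 2 (adjusted p of up to 0.0743 without control peptide replicate 1 and 0.159 without metastin-10 replicate 2).

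KCNJ2 encodes Kir2.1, a potassium channel that sets the resting potential, and its probe set read 4.13, 4.42 and 4.21 with control peptide and 5.19, 4.99 and 4.75 with metastin-10. KCNJ16, which encodes the epithelial Kir5.1 subunit, read 7.31, 7.19 and 7.15, against 7.71, 7.98 and 7.97 with metastin-10. Neither gene's groups overlapped, and the differences were 0.72 (adjusted p = 0.0429) and 0.67 (adjusted p = 0.0166). The other 19 of the 21 potassium channel genes did not pass, and the list median was 0.02. Both calls were lost in some of the fits with 1 array left out, in 8 of 12 for KCNJ2 (adjusted p up to 0.21 without metastin-10 replicate 1) and in 4 of 12 for KCNJ16 (up to 0.0919 without control peptide replicate 2).

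Higher genes of the signalling and junction lists were NRG1, CREB5, RAPGEF3 and CLDN1. NRG1, a ligand of the ERBB3 and ERBB4 receptors, read 6.99, 7.24 and 6.94 with control peptide and 7.66, 7.80 and 7.83 with metastin-10. It was the 1 of 15 ERBB receptor and ligand genes called (0.71 ± 0.12 SE, adjusted p = 0.02), at a probe set that can match several transcripts of the gene. Its other probe sets did not pass, and with the replicate block 2 of the 15 were called higher. CREB5, a basic leucine zipper factor of the CREB family, read 4.67, 4.88 and 4.56, against 5.45, 5.32 and 5.21 with metastin-10 (difference 0.62, adjusted p = 0.0182). RAPGEF3, the cAMP-activated exchange factor EPAC1, read 7.75, 7.89 and 7.71, against 8.30, 8.25 and 8.26 with metastin-10 (difference 0.49, adjusted p = 0.0454). These were 2 of the 28 cAMP and CREB genes, whose median was -0.04, the same as over the brighter 50% of all genes. CLDN1, a tight junction claudin, rose from 8.95, 8.85 and 9.09 to 9.56, 9.36 and 9.71 (difference 0.58, adjusted p = 0.0237) while the keratin gene KRT19 fell from 12.23, 12.28 and 12.28 to 11.77, 11.82 and 11.77 (difference -0.48, adjusted p = 0.009). They were the 2 called of 33 junction, keratin and mucin genes, 24 of which lay below 0, with a median of -0.07. In the fits with 1 array left out, NRG1 held in 7 of 12, CREB5 and CLDN1 in 8, RAPGEF3 in 1 and KRT19 in 10. Their highest adjusted p-values were 0.111 without control peptide replicate 1, 0.0999 without metastin-10 replicate 1, 0.145 without control peptide replicate 2, 0.2 without metastin-10 replicate 1 and 0.0638 without control peptide replicate 2.

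Among the genes that fell, a secretoglobin moved most. Secretoglobins are small secreted proteins of glands, and several are made by the endometrial epithelium. SCGB1D1, or lipophilin A, read 7.11, 7.04 and 7.06 with control peptide and 5.35, 5.46 and 5.92 with metastin-10. The control arrays lay within 0.07 of each other, and replicate 3, the metastin-10 array nearest to them, was still 1.13 lower. The gene fell 2.82-fold (log2 -1.50, 95% interval -1.78 to -1.21, adjusted p = 0.000319). SCGB2A1, also called mammaglobin B or lipophilin C, read 10.94, 10.997 and 11.12, against 10.36, 10.33 and 10.51 with metastin-10 and fell by 0.62 (adjusted p = 0.00726). These were 2 of 8 measured secretoglobins. With the replicate block 3 of the 8 were called lower. The list median was -0.0076 with 4 members on each side of 0, but it lay between -0.6 and 0.1 over the 21 alternative settings and changed sign in 4 of them, so it gives no direction for the family. Both were called with every array left out in turn.

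CYP1A1 and CYP1A2 fell, both of them enzymes of xenobiotic metabolism and targets of the aryl hydrocarbon receptor. CYP1A1 read 8.80, 8.95 and 8.91 with control peptide and 7.80, 7.69 and 7.92 with metastin-10. The groups were 0.88 apart at their nearest arrays, and the gene fell 2.12-fold (-1.08 ± 0.09 SE, adjusted p = 0.000282). CYP1A2 read 8.60, 8.57 and 8.40, against 7.75, 8.08 and 7.77 with metastin-10 (-0.66 ± 0.10 SE, adjusted p = 0.0126), at a probe set whose suffix marks probes shared with other genes, so its value may include them. A second probe set of CYP1A2 was at -0.07 and did not pass. CYP1A2 held in 9 of the 12 fits with 1 array left out (adjusted p up to 0.0837 without control peptide replicate 1). Of 14 aryl hydrocarbon receptor genes 11 lay below 0, with a median of -0.23. The list median lay between -0.29 and -0.14 over the 21 alternative settings. Other members did not pass and are named here after their values were seen: CYP1B1 was at -0.31 (adjusted p = 0.146), the repressor AHRR at -0.30 (adjusted p = 0.437), and the receptor gene AHR itself at -0.07 (adjusted p = 0.854). Of the 14, 3 lay above 0, the highest at 0.42, and none of these was called.

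The promoter of CYP1A1 is shown because the letters GCGTG form the core of the site of the aryl hydrocarbon receptor. GCGTG is also a core of the hypoxia-inducible factors, as is ACGTG. The promoter of ADM is shown because ADM was the lowest of the hypoxia genes. These promoters lie at chr15:74725479-74725778 on the minus strand and chr11:10304823-10305122 on the plus strand, in that order. Window and build are as above, with matches of GCGTG and ACGTG in capitals (CACGT is ACGTG on the other strand).
CYP1A1: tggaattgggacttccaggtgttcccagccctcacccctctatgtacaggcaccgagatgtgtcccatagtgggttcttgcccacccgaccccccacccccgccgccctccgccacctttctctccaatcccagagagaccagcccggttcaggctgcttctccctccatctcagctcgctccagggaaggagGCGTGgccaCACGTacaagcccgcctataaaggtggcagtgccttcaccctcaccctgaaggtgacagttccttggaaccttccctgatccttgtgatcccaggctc
ADM: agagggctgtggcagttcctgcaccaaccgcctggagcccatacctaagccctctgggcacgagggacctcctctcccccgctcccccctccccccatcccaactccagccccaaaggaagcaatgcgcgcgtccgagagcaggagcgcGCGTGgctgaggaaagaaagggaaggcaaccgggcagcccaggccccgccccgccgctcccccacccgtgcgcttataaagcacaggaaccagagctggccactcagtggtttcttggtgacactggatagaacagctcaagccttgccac
In CYP1A1, GCGTG starts at 57 and CACGT at 48 bases before the gene's start. In ADM, GCGTG starts at 101 bases before it, and ACGTG does not occur in this window. Over all 27305 promoters GCGTG occurred in 36.3% and ACGTG in 21.6%, both strands searched. Among the 83 lower genes with a promoter they occurred in 33 (39.8%) and 19 (22.9%), and among the 10 higher genes in 3 and 1. The CArG box search also found 1 match in the CYP1A1 window, 34 bases before the start. It is left in lower case above (cctataaagg), and it too describes letters and is not a bound site.

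After the hypoxia list, the motile cilium list, one of the longest, held the most falls by number. Of 66 measured genes of motile cilia and the axoneme, 7 fell and 0 rose, against 0.531% and 0.0759% over all genes. DNAI7, a dynein-associated axonemal protein, read 5.83, 5.77 and 5.84 with control peptide and 4.72, 4.86 and 5.14 with metastin-10 (-0.91 ± 0.12 SE, adjusted p = 0.00558). CFAP96, a protein of the ciliary microtubules, read 7.33, 7.41 and 7.13, against 6.35, 6.32 and 6.498 with metastin-10 (-0.90 ± 0.11 SE, adjusted p = 0.00308), and its second probe set also fell, by 0.60. Neither gene's groups overlapped, and both were called with every array left out in turn. RSPH1, a radial spoke head protein, read 6.72, 6.85 and 6.72, against 6.09, 6.04 and 6.12 with metastin-10. CFAP126, which takes part in placing basal bodies, read 6.89, 6.97 and 6.78, against 6.25, 6.14 and 6.28 with metastin-10. EFHC2, another protein inside axonemal microtubules, read 5.60, 5.56 and 5.82, against 4.68, 4.90 and 5.08 with metastin-10. In each of these 3 genes the metastin-10 arrays lay below all controls, with differences of -0.68, -0.66 and -0.77 (adjusted p = 0.00772, 0.00673 and 0.0117). RSPH1 and CFAP126 each lost their call in 1 of the 12 fits with 1 array left out, without control peptide replicate 2 (adjusted p = 0.0611 and 0.051), and EFHC2 in 3 (up to 0.0574 without metastin-10 replicate 1). The dynein light intermediate chain DNALI1 (-0.59) and the outer arm docking factor ODAD4 (-0.55) made up the 7 and are named to complete the count.

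Over the whole cilium list the median was -0.08, with 40 of the 66 below 0 and 26 above. In 26 of the 66 the unadjusted p was under 0.05, against 5810 of the 54613 probe sets. The list median lay between -0.22 and -0.06 over the 21 alternative settings. Picked after their values were seen, FOXJ1, the master transcription factor of motile cilia, was at -0.44 (adjusted p = 0.209), and RFX3, another ciliary regulator, at -0.66 (adjusted p = 0.101). With the replicate block 11 members were called lower. The number was 4 without metastin-10 replicate 1 or 2, 3 without control peptide replicate 2 and 4 without control peptide replicate 3.

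Collagens and a stromelysin fell among the matrix genes. COL5A2, a chain of the fibril-nucleating collagen V, read 6.90, 6.86 and 6.52 with control peptide and 5.97, 5.94 and 5.73 with metastin-10. COL6A1, a chain of the microfibrillar collagen VI, read 8.14, 8.22 and 8.03, against 7.48, 7.43 and 7.53 with metastin-10. Both had groups that did not overlap, with differences of -0.88 (adjusted p = 0.0316) and -0.65 (adjusted p = 0.00635). They were the 2 called of 37 collagen, laminin and basement membrane genes, 26 of which lay below 0, with a median of -0.11. COL6A1 has 8 probe sets, and the others, all dimmer, ran from -0.33 to 0.19 and did not pass. MMP10, stromelysin 2, read 8.70, 8.79 and 8.87, against 7.69, 7.86 and 7.91 with metastin-10 and fell 1.96-fold (-0.97 ± 0.08 SE, adjusted p = 0.000319), as the 1 called among 26 metalloproteinase, ADAM and TIMP genes (median 0.02). P4HA1, a subunit of the collagen prolyl hydroxylase and a hypoxia target, was the 1 called of 13 lysyl oxidase and collagen hydroxylase genes (-0.53, adjusted p = 0.0215), of which 10 lay below 0 (median -0.19) and 3 were called lower with the replicate block. COL5A2 held in 6 and P4HA1 in 8 of the 12 fits with 1 array left out (adjusted p up to 0.175 and 0.121, both without control peptide replicate 2). No integrin or focal adhesion gene of 25 and no plasminogen activator or serpin gene of 12 was called (medians 0.02 and 0.03). In the first, ITGA2, an alpha chain of collagen receptors, was at -0.30 (adjusted p = 0.194) and CAV1, the caveolar scaffold, at 0.24 (adjusted p = 0.352). In the second, SERPINA3, an inhibitor of serine proteases, was at 0.32 (adjusted p = 0.324) and SERPINB5, the epithelial serpin maspin, at -0.35 (adjusted p = 0.341).

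Hypoxia genes made up the largest group of falls among the lists. Of 78 genes in the list of hypoxia-induced genes outside glycolysis, 26 fell and 0 rose, against 0.531% and 0.0759% over all genes. Of the 78, 63 lay below 0, against 48.0% of all genes, and the median was -0.31. ADM, which encodes the vasodilator adrenomedullin, read 10.99, 10.88 and 10.99 with control peptide and 9.67, 9.37 and 9.60 with metastin-10. COXFA4L2, a mitochondrial protein formerly named NDUFA4L2, read 7.31, 7.39 and 7.49, against 5.80, 6.33 and 6.11 with metastin-10. SPAG4, a nuclear envelope protein, read 7.63, 7.57 and 7.69, against 6.65, 6.39 and 6.71 with metastin-10. In none of the 3 did the groups overlap, the nearest arrays lying 1.21, 0.98 and 0.86 apart, and the falls were 2.65, 2.49 and 2.07-fold. DDIT4, an inhibitor of the mTORC1 kinase, read 12.04, 12.18 and 12.17, against 11.21, 11.26 and 11.30 with metastin-10 (-0.87 ± 0.07 SE), and VEGFA, the vascular growth factor, read 11.35, 11.41 and 11.16, against 10.50, 10.66 and 10.52 with metastin-10 (-0.74 ± 0.11 SE). MIR210HG, the host transcript of a hypoxia-induced microRNA, fell by 0.87 (SE 0.10) and was the 1 called of 15 nuclear long non-coding RNAs. Among 39 genes of glycolysis, glycogen and pyruvate, ALDOC and PFKFB3 fell (by 0.87 and 0.58), 34 lay below 0, and the median was -0.16. The replicate block gave 5 calls among the 39, all lower. The 14 HIF subunits and oxygen sensors had 1 call, EGLN3, a prolyl hydroxylase that is itself a hypoxia target (-0.67, adjusted p = 0.0372), so the transcripts of the HIF subunits were not among the called genes. Leaving out 1 array at a time gave 14 to 27 calls in the larger list, the fewest without control peptide replicate 2. VEGFA held in 9 and PFKFB3 in 4 of the 12 such fits (adjusted p up to 0.0711 and 0.182, both without control peptide replicate 2), and EGLN3 held in 2 (up to 0.183 without control peptide replicate 2).

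Several process lists beyond hypoxia drew their calls from genes that the hypoxia list holds as well. All 3 falls among 31 lipid droplet, lipolysis and lipoprotein uptake genes were such genes. G0S2, an inhibitor of the lipase ATGL, read 8.43, 8.42 and 8.41 with control peptide and 7.37, 7.40 and 7.47 with metastin-10, fell 2.01-fold, and its control arrays had an SD of 0.01. HILPDA, which also inhibits ATGL and marks lipid droplets, and VLDLR, a lipoprotein receptor, fell by 0.50 and 0.56. With 1 array left out HILPDA held in 6 of 12 fits (adjusted p up to 0.0921 without control peptide replicate 1) and VLDLR in 7 (up to 0.13 without control peptide replicate 2). HILPDA lost its call whenever an array of the 6 compared was left out. The list median was -0.0097, with 15 members above and 16 below 0. All 4 falls among 39 unfolded protein and amino acid stress genes (DDIT4, STC2, VEGFA and VLDLR) were hypoxia genes too, and the list median was -0.10 with 30 below 0. Both falls among 20 clock genes also were, RORA, a nuclear receptor (4.29, 4.80 and 4.50 against 3.67, 3.51 and 3.97), and BHLHE40, a repressor of clock transcription (8.39, 8.65 and 8.41 against 7.81, 7.92 and 7.88). RORA lost its call with the replicate block (adjusted p = 0.0607) and in 10 of the 12 fits with 1 array left out (up to 0.212 without control peptide replicate 2), and BHLHE40 in 2 of them (up to 0.0567 without metastin-10 replicate 1). RORA has 8 probe sets, and the others ran from -0.27 to 0.14 and did not pass. The one at 0.14 was almost as bright as the one read here (mean level 4.50 against 4.56). CXCR4, the receptor of the chemokine CXCL12 and likewise on the hypoxia list, read 7.51, 7.79 and 7.48, against 6.60, 6.79 and 6.74 with metastin-10 (difference -0.88, adjusted p = 0.00331). It was the 1 called of 21 chemokine and motility genes, whose median was 0.06, and its other 2 probe sets, at -0.33 and -0.45, did not pass.

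**Figure D3:**
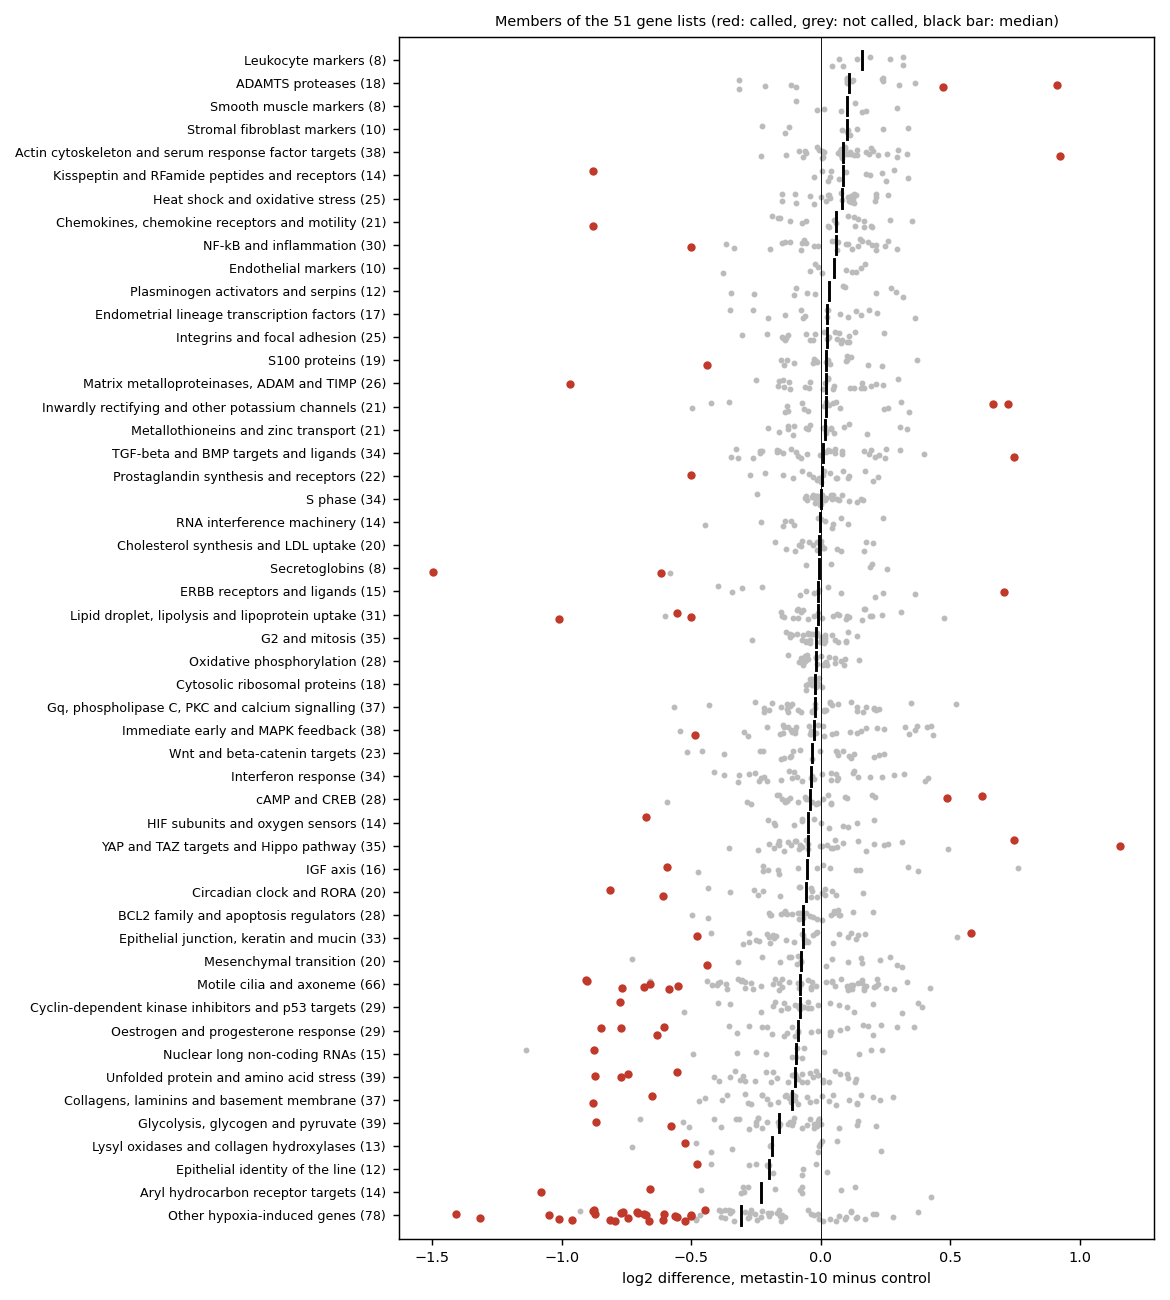
Log2 difference of each measured member of the 51 gene lists, one line of points per list with the number measured in brackets, called members in red, others in grey and the list median as a black bar. Red points to the left are concentrated in the hypoxia list (26 of 78) and the motile cilium list (7 of 66), whose medians are -0.31 and -0.08.

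4 of 29 oestrogen and progesterone response genes fell, against 0.531% over all genes. HSD11B2, which inactivates cortisol, read 6.07, 6.12 and 5.97 with control peptide and 5.24, 5.39 and 4.98 with metastin-10. TSC22D3, or GILZ, a target of the glucocorticoid receptor, read 7.99, 8.04 and 8.02, against 7.33, 7.40 and 7.41 with metastin-10. STC1 and STC2 encode the stanniocalcin glycoproteins, and the hypoxia list also holds them. STC1 read 10.60, 10.63 and 10.66, against 10.01, 9.99 and 10.09 with metastin-10. STC2 read 8.28, 8.48 and 8.38, against 7.63, 7.47 and 7.72 with metastin-10. None of the 4 had overlapping groups, with differences of -0.85, -0.63, -0.60 and -0.77 and adjusted p-values of 0.0398, 0.00375, 0.00331 and 0.00681. The list median was -0.09, with 18 of 29 below 0. TSC22D3 and STC1 were called with every array left out in turn, STC2 in 11 of 12 such fits (adjusted p = 0.051 without control peptide replicate 2) and HSD11B2 in 3 (up to 0.19 without control peptide replicate 2). Of 17 endometrial lineage transcription factors none was called (median 0.02), and MSX1, the homeobox factor of the receptive endometrium, was at -0.35 (adjusted p = 0.268).

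Single genes fell in growth and inflammatory lists. CDKN1C, the cyclin-dependent kinase inhibitor p57, read 8.67, 8.69 and 8.37 with control peptide and 7.82, 7.91 and 7.68 with metastin-10 (-0.77 ± 0.12 SE, adjusted p = 0.0171). Of its 4 other probe sets 3 fell by similar amounts (0.77 to 0.83), and it was the 1 called of 29 kinase inhibitor and p53 target genes (median -0.08, 21 below 0). IGFBP7, a secreted binding protein of the IGF axis, read 9.18, 9.14 and 8.92, against 8.35, 8.51 and 8.60 with metastin-10 (-0.59 ± 0.11 SE, adjusted p = 0.042). It was the 1 called of 16 IGF genes and lost its call with the replicate block (adjusted p = 0.0536). Its other probe sets, at -0.27 (adjusted p = 0.349) and 0.04 (adjusted p = 0.938), did not pass. S100A4, a calcium-binding protein linked with motility, fell by 0.44 (adjusted p = 0.0168) among 19 S100 genes (median 0.02) and 20 mesenchymal transition genes (median -0.08). PTGS2, cyclooxygenase 2, fell by 0.50 (adjusted p = 0.0478) among 22 prostaglandin genes (median 0.0045) and 30 NF-kB and inflammatory genes (median 0.06). In the fits with 1 array left out CDKN1C held in 8 of 12, S100A4 in 7, IGFBP7 in 5 and PTGS2 in 2, with the highest adjusted p at 0.103 and 0.103 without control peptide replicate 2 and at 0.21 and 0.233 without metastin-10 replicate 1.

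Proliferation and housekeeping lists held no call. None of 34 S phase, 35 G2 and mitosis, 28 BCL2 family and apoptosis, 34 interferon, 23 Wnt, 20 cholesterol, 25 heat shock and oxidative stress, 21 metallothionein and zinc, 28 oxidative phosphorylation, 18 ribosomal protein or 14 RNA interference genes passed. Their medians lay between -0.07 (apoptosis) and 0.08 (heat shock). In the S phase, oxidative phosphorylation and ribosomal protein lists 0 members had an unadjusted p under 0.05, against 5810 of 54613 probe sets. The pro-apoptotic gene BMF was at -0.50 and did not pass (adjusted p = 0.0792) but did with the replicate block (adjusted p = 0.0166). The licensing factor CDT1 was at -0.24 (adjusted p = 0.476), the mitotic phosphatase CDC25C at -0.26 (adjusted p = 0.396) and the Wnt inhibitor APCDD1 at -0.52 (adjusted p = 0.0751). The interferon-induced helicase DDX60 was at -0.37 (adjusted p = 0.084) and GCLM, a subunit of the glutathione-synthesising ligase, at 0.26 (adjusted p = 0.243). A p above the threshold does not show that these genes were alike in both groups, and the median half-width of the 95% interval was 0.25.

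The 3 same-numbered pairs of arrays gave similar sizes. For the 105 lower genes the median difference was -0.66 between the replicate 1 arrays, -0.65 between the replicate 2 arrays and -0.55 between the replicate 3 arrays. For the 15 higher genes it was 0.62, 0.56 and 0.65. Since the genes were called on these arrays, the signs are fixed by the choice and the sizes are a description. For CAPSL, a calcium-binding protein named among the lowest, the metastin-10 arrays read 5.85, 5.76 and 6.43 against 6.81, 7.01 and 6.82, so replicate 3 lay nearer to the controls, and the call held in 7 of the 12 fits with 1 array left out (adjusted p up to 0.13 without control peptide replicate 2). Of the 120 called genes 79 had other probe sets, 151 in all, of which 123 had the same sign as the brightest one, 21 were called in the same direction (over 16 genes) and 0 in the other.

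**Figure D4:**
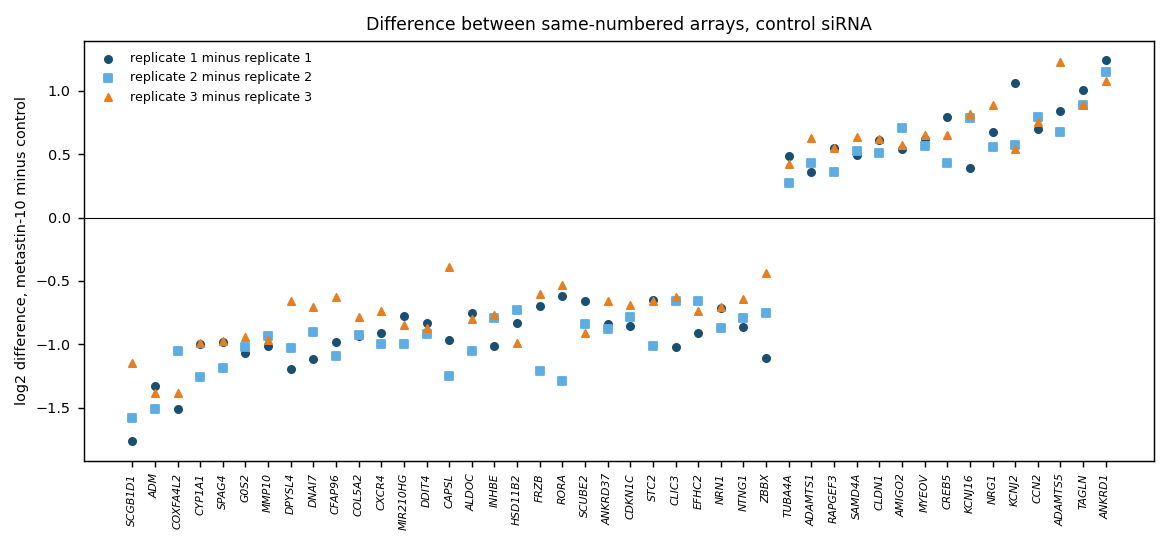
Log2 difference between the metastin-10 and the control peptide array of the same replicate number, for the named genes with the lowest and the highest differences under control siRNA. In every gene the 3 points lie on the same side of 0, and for ANKRD1 they are 1.24, 1.15 and 1.07.

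In the arrays labelled GPR54 siRNA the called genes did not differ between metastin-10 and control peptide past the threshold. Nor did the named genes that were not called under control siRNA, such as ERG at -0.45 and SERPINA3 at 0.26. The lack of calls there is therefore not particular to the called genes. Those 6 arrays do not enter the differences above. They did enter the shared estimate of the spread that called the genes and the choice of the brightest probe set, so they are not independent of that choice. The 105 lower genes ranged there from -0.21 to 0.19, and 33 of them lay below 0, against 55.8% of all genes. The 15 higher genes ranged from -0.09 to 0.10, and 9 of them lay below 0. ANKRD1 read 5.97, 5.73 and 6.04 with control peptide and 6.03, 5.97 and 5.96 with metastin-10 in those arrays, and SCGB1D1 read 7.47, 7.25 and 7.22, against 7.54, 7.36 and 7.36 with metastin-10, so both pairs of groups overlapped. CYP1A1 read 8.94, 8.92 and 8.93, against 8.98, 8.91 and 8.80 with metastin-10, and DNAI7 6.07, 5.93 and 5.66, against 5.81, 5.89 and 5.82 with metastin-10. The difference between the 2 effects, tested as an interaction over all probe sets, was called for 21 of the 120 genes, 19 lower and 2 higher, and for 28 probe sets in all. This test uses the same control siRNA arrays that chose the genes, so the count is given as a description. Since KISS1R was not lower in the arrays with that label, a loss of the receptor's mRNA is not shown for them by this probe set.

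**Figure D5:**
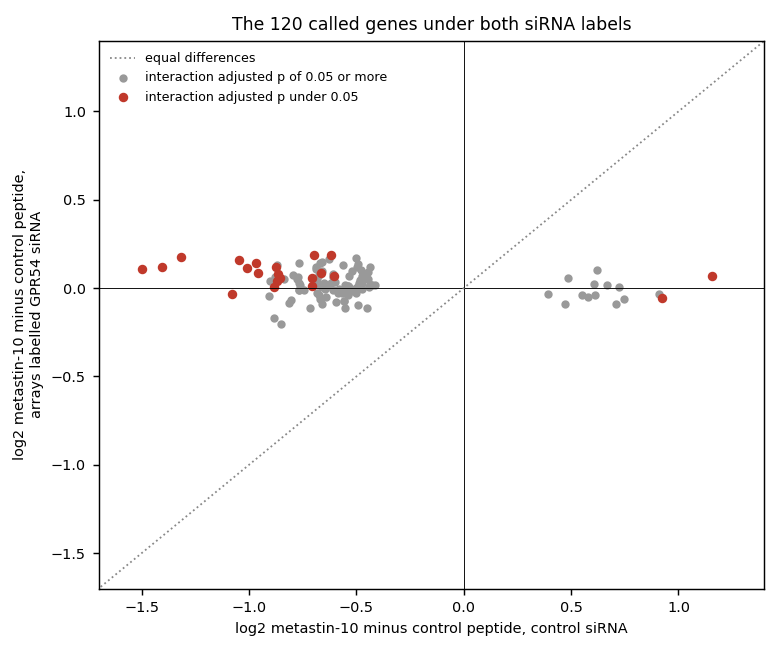
Log2 difference, metastin-10 minus control peptide, of the 120 called genes under control siRNA (horizontal) and in the arrays labelled GPR54 siRNA (vertical), with genes whose interaction was called in red and a dotted line of equal differences. The vertical values stay between -0.21 and 0.19 while the horizontal ones reach -1.50 and 1.15.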

How the data were processed

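Total RNA of 12 cultures was hybridised to Affymetrix U133 Plus 2.0 arrays after one-cycle labelling, per the labels. The values are those the authors deposited, log2 levels after RMA (per the submitters' processing notes and the series' design text). RMA corrects background, gives all arrays a common distribution and summarises the probes of a set, so a shift of most genes one way would not be seen. No software version or detection call was given in the sources used here. The background level is unknown, which may compress the folds of dim probe sets. Values ran from 1.88 to 14.6. For arrays, their number limits the precision.

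Of 54675 probe sets, 62 controls were left out and 54613 tested with no filter. The platform annotation gave 41091 of them 1 gene. A further 1801 had several genes and stay unnamed. The other 11721 (21.5%) were not in that annotation and are unnamed here. They held 53 of the 234 calls (22.6%), all lower. Symbols were checked by Entrez identifier against RefSeq (41037 matched, 0 changed). A gene is read at its brightest probe set over the 12 arrays.

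limma 3.58.1 in R 4.3.3 was fitted as 4 group means over all 12 arrays (8 residual degrees of freedom). Tests were two-sided, with Benjamini-Hochberg adjustment over the 54613 probe sets and a threshold of 0.05. Called, rose and fell refer to this test, and each adjusted p comes from it unless another fit is named. The script was tested on simulated data.

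The 51 gene lists and the genes in them (1398 entries, 1279 measured) were chosen with earlier results of these data known, so lists are described by counts and medians with no test. Named are KISS1R and KISS1, up to 20 higher and 30 lower genes with the largest changes whose groups do not overlap, up to 5 called members of each list, and up to 2 members with the smallest p where a list had none. Genes outside this rule are said to be so.

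Every group has replicates 1 to 3 in its labels. Deviations of same-numbered control siRNA arrays from their group means correlated at 0.26, 0.17 and 0.44. The main fit, which made the calls, has no replicate term. The replicate block, which takes the numbers as pairs, was therefore fitted as an alternative. The other alternatives were replicate 3 as a batch term, the 6 arrays alone, array weights, an intensity trend, the brighter 50% of the probe sets, median centring, replicates 1 and 2 only, the mean of a gene's probe sets, and each array left out. Promoters came from RefSeq on GRCh38.p14.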

Additional observations from a re-analysis of the deposited data

Results flagged for a closer look

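17 of the named genes differed in their metastin-10 effect between the siRNA labels, by the limma interaction (the effect in the arrays labelled GPR54 siRNA minus that under control siRNA, on the log2 scale). The genes were chosen on the control siRNA arrays that the interaction also uses, and the range of the effect in the other arrays is given with the results. 2 genes that rose had interactions below 0, ANKRD1 at -1.08 (adjusted p = 0.0215) and TAGLN at -0.98 (adjusted p = 0.0241). The largest values above 0 belonged to SCGB1D1 at 1.6, ADM at 1.52, COXFA4L2 at 1.49, SPAG4 at 1.21, G0S2 at 1.13 and MMP10 at 1.11, with adjusted p-values between 0.00279 and 0.0196. DPYSL4 and CYP1A1 were both at 1.05, MIR210HG at 0.99, ALDOC at 0.95, INHBE at 0.92 and DDIT4 at 0.91. KISS1R was at 0.89 and STC1 at 0.67, both with an adjusted p of 0.04996, and SCGB2A1 was at 0.81. Leaving out 1 array at a time changed the number of interactions called among the 120 genes from 21 to between 5 and 22.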

How the results depend on the processing

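Of the 64 named genes that were called, 21 were called under all 21 alternative settings, among them ADM, ANKRD1, CYP1A1, DNAI7, G0S2, KISS1R, MMP10, SCGB1D1 and TAGLN, and 0 changed sign. Counts are given as probe sets called, genes higher, genes lower and interactions called at the called genes, which were 234, 15, 105 and 21. With the replicate block they were 422, 31, 171 and 27, with replicate 3 as a batch term 532, 45, 207 and 39, with array weights 495, 31, 195 and 95, and with an intensity trend 368, 31, 168 and 44. With the 6 control siRNA arrays alone the first 3 were 77, 4 and 36. The brighter 50% of the probe sets gave 350, 25, 189 and 38, replicates 1 and 2 alone 179, 12, 63 and 1, the mean of a gene's probe sets 26 higher, 127 lower and 34 interactions, and median centring 234, 11, 102 and 15. Leaving out each array in turn gave 71 to 263 probe sets, 5 to 16 genes higher, 34 to 121 lower and 5 to 22 interactions. The cause of these shifts was not tested. Fewer arrays leave fewer degrees of freedom, and the filter and the gene means adjust over fewer tests. RORA and IGFBP7 were the 2 named genes whose call was lost with the block.

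Over the 9888 dimmer genes the median difference was 0.07, with 3 called higher and 17 lower, and over the 9887 brighter genes it was -0.04, with 12 and 88. With 3 arrays a group, the data allow a median half-width of the unadjusted 95% interval of 0.25. At probe sets with a wider interval, a change of that size could not be told from the spread even before adjustment. At others a smaller change could, such as SOX17 at -0.20 (unadjusted 95% interval -0.36 to -0.05). A call asked for more: the smallest was 1.31-fold (TUBA4A, log2 0.39), and RGS16 at -0.57 did not pass.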

Other observations

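Of the 120 called genes, 58 belonged to no list, 54 of them lower. Those of the naming rule included 4 that rose. MYEOV, a gene first found in myeloma, read 8.37, 8.43 and 8.33 with control peptide and 8.99, 8.99 and 8.98 with metastin-10 (0.61 ± 0.07 SE, adjusted p = 0.00331). AMIGO2, a cell-surface adhesion protein, read 10.44, 10.27 and 10.39, against 10.98, 10.97 and 10.96 with metastin-10 (0.61 ± 0.08 SE, adjusted p = 0.0048). The metastin-10 arrays lay within 0.01 and 0.02 of each other in these 2 genes. SAMD4A, an RNA-binding repressor of translation, and TUBA4A, an alpha tubulin, were 1.46-fold and 1.31-fold higher, and were called in 6 and 1 of the 12 fits with 1 array left out (adjusted p up to 0.132 without metastin-10 replicate 2 and 0.189 without control peptide replicate 1). Among the lower ones, INHBE, a subunit of activin E, read 8.39, 8.24 and 8.26, against 7.38, 7.45 and 7.49 with metastin-10 (1.81-fold lower, adjusted p = 0.00126). SCUBE2, a secreted protein that releases Hedgehog ligands, read 6.003, 5.99 and 6.11, against 5.35, 5.14 and 5.20 (1.74-fold lower, adjusted p = 0.00264). FRZB, a secreted antagonist of Wnt ligands, read 6.06, 6.34 and 6.36, against 5.36, 5.13 and 5.76 (1.79-fold lower, adjusted p = 0.0236), and held in 8 of 12 fits with 1 array left out (up to 0.136 without control peptide replicate 2). NTNG1, a netrin of axon guidance, was 1.70-fold lower and CLIC3, a chloride channel family protein, 1.70-fold lower. CLIC3 held in 2 of 12 such fits (adjusted p up to 0.133 without control peptide replicate 2).

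The following lower genes were chosen after their values were seen. BTG1 (log2 difference -0.65) and YPEL3 (-0.66), which restrain growth, BCL6 (-0.66), a transcriptional repressor, and CREBRF (-0.63), a regulator of the CREB3 family, each passed with an adjusted p between 0.00578 and 0.0142. YPEL3 has a second, dimmer probe set at 0.53 (adjusted p = 0.314), of opposite sign. TXNIP, an inhibitor of thioredoxin on the hypoxia list, fell by 0.50. SLC40A1, the iron exporter ferroportin, fell by 0.60 and SELENOP, the selenium transport protein, by 0.62. SAT1, an enzyme of polyamine breakdown, fell by 0.48. Membrane and secreted proteins among the lower genes included LPAR3, a lysophosphatidic acid receptor of the uterine epithelium (-0.61), CD24 (-0.56), the protease TMPRSS2 (-0.43) and the mucosal chemokine CCL28 (-0.49). BCL6, BTG1 and TMPRSS2 also have a dimmer, uncalled probe set above 0 (0.16, 0.19 and 0.17), while their remaining probe sets lay below 0. A second probe set of LPAR3 (-0.07) and of SLC40A1 (-0.11) did not pass.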
